A study of Mus musculus with 6 samples.

Results

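Histone lysine methyltransferases and demethylases are the enzymes that add methyl groups to lysines of the histone tails and remove them again. Genes were taken by symbol: every array feature whose mouse gene symbol began with Kdm, Kmt2, Kmt5, Setd, Setdb, Ehmt, Suv39h, Prdm or Nsd and its family number, together with Ezh1, Ezh2, Dot1l, Ash1l and Jmjd6. The rule found 60 of 25206 features. They comprised 22 methyltransferases with a generally accepted histone target (writers), 17 demethylases with one (erasers), 13 PRDM family genes, 5 other SET domain proteins, 2 other JmjC domain proteins and 1 non-coding transcript, Prdm16os. Ash1l and Suv39h1 also meet the rule and were not analysed here.

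The outcome was that 0 of the 60 genes passed the test. On the higher side in macrophages labelled Tet2-deficient lay 43 of them (71.7%, against 42.1% of all features). Of the 52 genes above the median level over all features, 40 (76.9%) lay higher, against 49.1% of such features. With a trend of gene span and level removed, 36 of the 60 lay higher. The median log2 change was 0.16 for writers and 0.16 for erasers, and the difference between the classes was not tested. The genes nearest the threshold were Prdm1, Kmt2c and Setd5, all higher. Next came Prdm8, which lay lower, then Prdm10 and the H3K27 demethylase Kdm6b, both higher.

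Most writers carry a SET domain and use S-adenosylmethionine as methyl donor, whereas Dot1l has a different fold. Methylation of lysine 4 of histone H3 (H3K4) accompanies active promoters and enhancers, that of H3K36 transcribed gene bodies, and that of H3K9 and H3K27 silent chromatin. The Kdm1 enzymes are flavin-dependent amine oxidases. All other Kdm enzymes are JmjC dioxygenases that need iron and 2-oxoglutarate, the same cofactors as the Tet enzymes, which oxidise 5-methylcytosine in DNA. Kdm6b is a known target of lipopolysaccharide signalling in macrophages, and several PRDM proteins are transcription factors whose SET-like domain has little or no known activity.

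The cells were peritoneal macrophages drawn out with thioglycollate, an irritant broth, from Tet2-/- mice and from wild-type littermates, all of strain background C57BL/6J, 3 biological replicates per group with 1 whole-transcript array each. On day 4 after an injection of 1 mL of 4% broth the cells were plated with 10% serum, and for 10 h every culture of both groups was kept with lipopolysaccharide (10 ng/mL) and interferon gamma (2 ng/mL). No unstimulated culture was measured, so each value describes the stimulated state. The labels name neither the age or sex of the mice nor the deleted part of Tet2. Changes are given as log2 of Tet2-deficient over wild-type ± limma's standard error (3 arrays a group), and adjusted p-values are Benjamini-Hochberg values over all 25206 features. Levels are log2 RMA values. They were compared between groups only within a gene, and a gene's mean was set against the median over all features only as a rough guide to how bright its signal was.

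General macrophage markers were bright on every array, with a mean log2 level over 7 markers of 9.76 to 9.82 in wild-type and 10.0 to 10.2 in Tet2-deficient cultures. Markers of T cells (7 of 7 genes) and of mast cells and eosinophils (7 of 8) lay below the median feature level of 3.55. The same held for 7 of 8 neutrophil markers and 4 of 7 B and plasma cell markers. Markers of mesothelium and fibroblasts leaned with genotype: 2 of 9 lay below the median level, 7 had a change above 0 (median 0.41) and 1, Pdgfrb, rose (0.91 ± 0.16, limma adjusted p = 0.0361). Their mean log2 level was 4.13 to 4.55 in wild-type and 4.34 to 5.16 in Tet2-deficient cultures, and their part in the values below was not tested. Across groups, 4 of 10 resident peritoneal macrophage markers (F5, Prg4, Timd4 and Itgam) and 7 of 14 early lipopolysaccharide response genes rose (limma adjusted p up to 0.0477), and 0 of either list fell. The mean log2 level of the resident markers was 5.86 to 6.19 in wild-type and 6.67 to 7.12 in Tet2-deficient cultures, and their part in the values below was not tested. Both lists were chosen with earlier results of these arrays known. The Tet2 feature itself read 5.40, 5.07 and 5.10 in wild-type and 5.55, 5.25 and 5.75 in Tet2-deficient cultures (log2 change 0.32 ± 0.16, adjusted p = 0.365), so the groups rest on the labels. In bulk cultures, fewer cells of a type and less RNA per cell cannot be told apart.

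Over all features 0.952% passed an adjusted p of 0.05 in limma (0.647% higher, 0.305% lower), and 0 of the 60 genes did. An unadjusted p under 0.05 was reached by 16 of the 60 (26.7%), against 16.0% of all features. These 16 were unevenly split, 15 higher and 1 lower, where 7.63% of all features were higher and 8.37% lower by the same rule. At an adjusted p under 0.25 there were 12 genes (20%), 11 higher and 1 lower, against 12% of all features (5.95% higher, 6.05% lower). Group values did not overlap for 17 genes (28.3%), 14 higher and 3 lower, against 22.0% of all features (9.74% higher, 12.2% lower). Most of the family was brighter than the typical feature: 52 lay above the median level, and 15 of these, all higher, had an unadjusted p under 0.05 (28.8%), against 24.0% of all features above that level (13.4% higher, 10.6% lower). Of the 52, 40 (76.9%) had a change above 0, against 49.1% of such features. The median log2 change of the 60 was 0.15, against -0.040 for all features. Leaving out wild-type replicate 2, wild-type replicate 3 or Tet2-deficient replicate 3 cut the 16 genes to 10, 9 and 9, and removing a trend with gene span and level left 9. In the opposite direction, the prior with trend and robust fitting let Prdm1, Kmt2c and Setd5 pass, as did a test of features above the median level alone (background 3.23% and 6.71%). With array weights Prdm1 alone passed (background 1.98%), as it did with arrays centred on their medians.

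**Figure D1:**
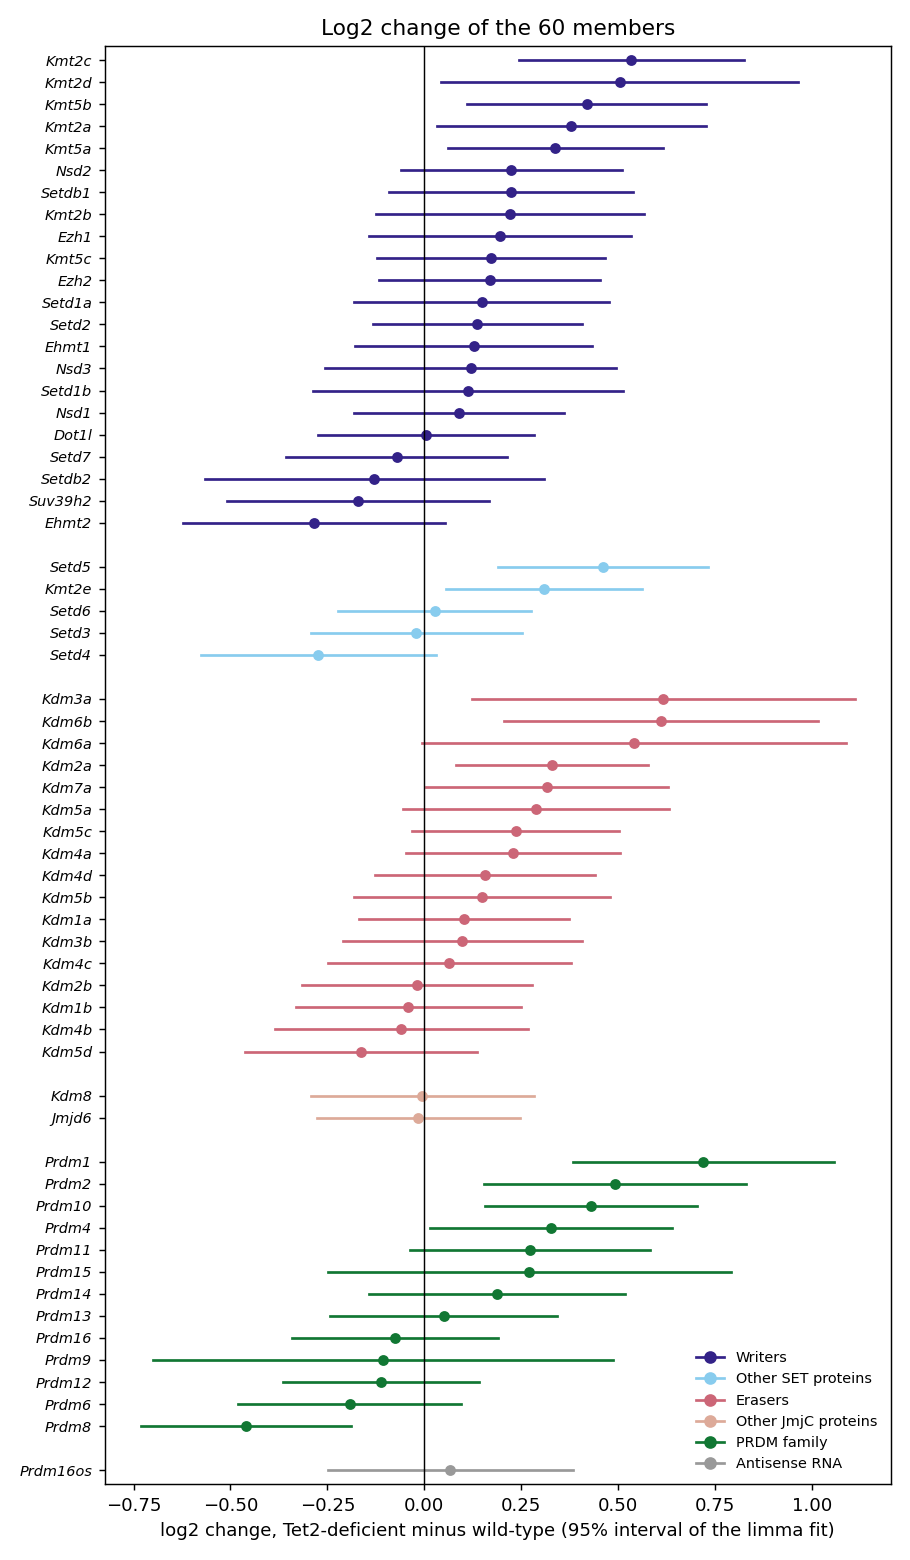
Log2 change of each of the 60 genes (x axis, Tet2-deficient minus wild-type), grouped by class; points are the limma estimates and bars their 95% intervals. Of the 60 intervals, 15 lie wholly above 0 and 1, that of Prdm8, wholly below it, none of them after adjustment for multiple tests.

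The intervals also limit what could have been missed. For 41 of the 60 genes the 95% interval lay wholly within a 1.5-fold change in either direction, and for 56 within a 2-fold change. The 4 others were Prdm1, Kdm3a, Kdm6a and Kdm6b, each with an upper bound past 2-fold.

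Prdm1, which encodes the transcriptional repressor Blimp-1, had the smallest p of the family. It read 6.34, 6.02 and 5.99 in wild-type and 6.61, 6.96 and 6.93 in Tet2-deficient cultures. All 3 Tet2-deficient values lay above all wild-type values, and wild-type replicate 1 came closest to them. The log2 change was 0.72 ± 0.15, or 1.65-fold, with an adjusted p = 0.0594. It passed under 4 of 13 alternatives (adjusted p = 0.0236 to 0.213 over all of them). Blimp-1 is best known from plasma cells. Of the B and plasma cell markers 0 of 7 passed in limma or had an unadjusted p under 0.05 (smallest adjusted p = 0.537). Their mean log2 level was 3.15 to 3.29 in wild-type and 2.99 to 3.55 in Tet2-deficient cultures, and their part in the Prdm1 values was not tested.

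Kmt2c, also called MLL3, is the catalytic subunit of a complex that places H3K4 monomethylation at enhancers. Its levels were 5.96, 5.75 and 5.83 in wild-type and 6.28, 6.30 and 6.56 in Tet2-deficient cultures, without overlap (log2 change 0.53 ± 0.13, adjusted p = 0.0870). Setd5, a SET domain protein whose own methyltransferase activity is disputed, read 6.48, 6.53 and 6.54 in wild-type and 7.12, 6.84 and 6.99 in Tet2-deficient cultures. Its wild-type values were nearly identical and all lay below the Tet2-deficient ones (0.46 ± 0.12, adjusted p = 0.106). Both genes passed under 2 of 13 alternatives, with adjusted p-values of 0.0381 to 0.280 for Kmt2c and 0.0465 to 0.284 for Setd5. With the trend of span and level removed their log2 changes were 0.29 and 0.28.

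**Figure D2:**
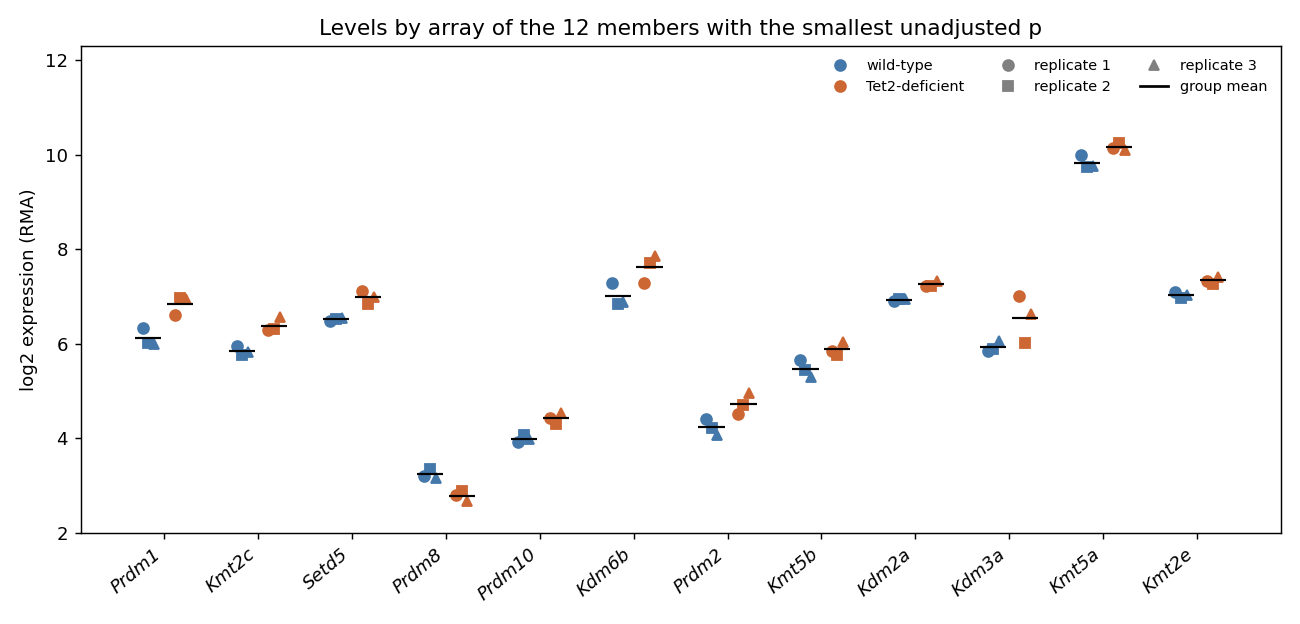
Log2 expression (y axis) on each of the 6 arrays for the 12 genes with the smallest unadjusted p, in order of p; symbols mark replicates, colours the groups and lines the group means. For 11 of the 12 genes the groups do not overlap, Kdm3a being the exception, against 22.0% of all features. The 12 genes were chosen by p on the same arrays, so that count is no separate evidence. Heights are not comparable between genes.

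Tet enzymes act mainly on cytosine in CG dinucleotides, so a window at an annotated start of each of these 3 genes is shown with each CG in capitals. Sequences are from RefSeq on GRCm38.p6, 5′ to 3′ on the strand of the gene, in windows of 300 bases around an annotated start. No DNA methylation was measured in this series, and a CG count is a description of the letters only.
Kmt2c, minus strand, chr5:25498734-25499033: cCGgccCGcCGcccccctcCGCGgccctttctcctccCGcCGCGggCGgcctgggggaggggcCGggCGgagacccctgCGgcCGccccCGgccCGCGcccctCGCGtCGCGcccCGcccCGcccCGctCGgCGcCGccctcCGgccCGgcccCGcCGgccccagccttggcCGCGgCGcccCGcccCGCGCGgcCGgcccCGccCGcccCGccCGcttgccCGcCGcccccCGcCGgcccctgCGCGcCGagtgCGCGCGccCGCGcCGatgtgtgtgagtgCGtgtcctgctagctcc
Prdm1, minus strand, chr10:44458699-44458998: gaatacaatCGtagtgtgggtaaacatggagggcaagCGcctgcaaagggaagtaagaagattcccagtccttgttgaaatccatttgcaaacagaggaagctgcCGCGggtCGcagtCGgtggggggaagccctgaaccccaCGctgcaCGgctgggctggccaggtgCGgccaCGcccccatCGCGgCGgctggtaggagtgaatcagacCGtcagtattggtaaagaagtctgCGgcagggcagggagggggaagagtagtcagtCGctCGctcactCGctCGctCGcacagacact
Setd5, plus strand, chr6:113104685-113104984: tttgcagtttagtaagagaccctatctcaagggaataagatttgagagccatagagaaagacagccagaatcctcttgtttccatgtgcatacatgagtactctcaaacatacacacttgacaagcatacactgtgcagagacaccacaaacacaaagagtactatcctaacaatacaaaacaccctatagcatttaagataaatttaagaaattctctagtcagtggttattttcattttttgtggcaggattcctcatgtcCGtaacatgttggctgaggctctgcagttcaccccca
The Kmt2c window held 56 CG, that of Prdm1 20 and that of Setd5 1. Whether each window holds the main start of its gene was not tested. RefSeq windows were found for 46 of the 60 genes, 61 windows in all, with a median of 27 CG. For all other protein-coding genes the median was 13 over 21203 windows. A CG occurred at least once in 96.7% of the members' windows and in 95.4% of those of other protein-coding genes. Writers had a median of 31 over 21 windows, erasers 22.5 over 18 and PRDM genes 19 over 14. Some genes have several starts whose windows overlap, so windows are not independent.

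All 7 H3K4 writers lay above the median level. Of all features above that level, 49.1% had a change above 0, and 13.4% were higher by unadjusted p under 0.05. Among H3K4 writers, 6 of 7 lay on the higher side and 3, all higher, had an unadjusted p under 0.05. Besides Kmt2c these were Kmt2d, or MLL4, the closest relative of Kmt2c, and Kmt2a, or MLL1, which maintains Hox gene expression in blood cells. Kmt2d read 6.59, 6.33 and 6.23 in wild-type and 6.42, 7.02 and 7.22 in Tet2-deficient cultures. Tet2-deficient replicate 1 lay within the wild-type range, and the log2 change was 0.50 ± 0.20 (adjusted p = 0.267), or 0.34 without Tet2-deficient replicate 3. Kmt2a read 6.58, 6.08 and 6.30 against 6.57, 6.66 and 6.87, with wild-type replicate 1 marginally above Tet2-deficient replicate 1 (0.38 ± 0.15, adjusted p = 0.268). The log2 change of Kmt2b was 0.22 ± 0.15 (adjusted p = 0.541). For Setd1a and Setd1b, the catalytic subunits behind most H3K4 trimethylation, it was 0.15 and 0.11, and for Setd7, a monomethyltransferase with many targets outside histones, -0.071.

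The 3 enzymes that methylate lysine 20 of histone H4 all lay higher. Kmt5a, the monomethyltransferase needed for cell division, read 9.99, 9.74 and 9.76 in wild-type and 10.15, 10.25 and 10.10 in Tet2-deficient cultures (0.34 ± 0.12, adjusted p = 0.220). Kmt5b, which adds further methyl groups to that lysine, read 5.65, 5.44 and 5.29 against 5.85, 5.75 and 6.03 (0.42 ± 0.14, adjusted p = 0.179). In both cases the groups did not overlap. Kmt5c, with the same activity as Kmt5b, had 0.17 ± 0.13 (adjusted p = 0.581). Proliferation markers did not pass in these arrays (0 of 9, median log2 change 0.035).

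The writers of the repressive marks showed no common side. Of the 5 H3K9 writers measured, 2 lay higher and 3 lower, with a median of -0.13. Ehmt2, or G9a, the main H3K9 dimethyltransferase, had the lowest change of all writers. Its levels were 7.70, 7.38 and 7.57 in wild-type and 7.01, 7.32 and 7.45 in Tet2-deficient cultures, which overlap (-0.28 ± 0.15, adjusted p = 0.400), and the change was -0.16 without Tet2-deficient replicate 1. Its partner enzyme Ehmt1 had 0.13 ± 0.14 (adjusted p = 0.709), and Suv39h2, which trimethylates heterochromatin, had -0.17 ± 0.15 (adjusted p = 0.639). Setdb1, which silences retroelements, had 0.22 ± 0.14 (adjusted p = 0.489).

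Setdb2, known as an interferon-induced gene of infected macrophages, read 5.68, 5.36 and 5.77 in wild-type and 5.49, 5.09 and 5.84 in Tet2-deficient cultures (-0.13 ± 0.19, adjusted p = 0.802). The groups overlapped widely, and its direction turned without Tet2-deficient replicate 2 (0.061). Genes induced by type I interferon had a median log2 change of -0.25 over 18, with 3 above 0 and 0 past the threshold in limma, the nearest being Mx1 (-0.83 ± 0.20, adjusted p = 0.0827). By unadjusted p under 0.05 there were 0 higher and 7 lower. All 18 lay above the median level, where 49.1% of all features had a change above 0. At that level 13.4% of features were higher and 10.6% lower by the same p.

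The H3K27 methyltransferases of Polycomb complex PRC2 differed little between groups. Ezh2, its main catalytic subunit, read 4.81, 4.94 and 5.04 against 5.25, 4.98 and 5.07 (0.17 ± 0.13, adjusted p = 0.573). Ezh1, the form of non-dividing cells, read 6.65, 6.88 and 6.73 against 7.23, 6.75 and 6.86 (0.20 ± 0.15, adjusted p = 0.582). For both, Tet2-deficient replicate 1 gave the highest value and the other arrays overlapped. Without that array the changes were 0.095 for Ezh2 and 0.053 for Ezh1. The 95% interval was -0.12 to 0.45 for Ezh2 and -0.14 to 0.53 for Ezh1. Dot1l, the sole H3K79 methyltransferase, read 7.66, 7.57 and 7.71 in wild-type and 7.53, 7.60 and 7.82 in Tet2-deficient cultures (0.0038 ± 0.12, 95% interval -0.27 to 0.28). The 4 H3K36 writers Nsd1, Nsd2, Nsd3 and Setd2 had log2 changes of 0.090 to 0.23 and 0 of them reached an unadjusted p under 0.05.

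Grouped by target, the H3K27 demethylases had the highest median log2 change of the erasers, 0.58 over 2 genes. Kdm6b, or JMJD3, read 7.27, 6.85 and 6.88 in wild-type and 7.27, 7.71 and 7.85 in Tet2-deficient cultures. The lowest Tet2-deficient array and the highest wild-type array, both replicate 1, were level to 2 decimals. The log2 change was 0.61 ± 0.18, or 1.53-fold (adjusted p = 0.141), and with the span trend removed 0.55. Kdm6b passed under 0 of 13 alternatives (adjusted p = 0.0705 to 0.372). Its X-linked relative Kdm6a, or UTX, read 5.77, 4.998 and 5.61 against 6.27, 5.53 and 6.20, so that replicate 2 was lowest in either group (0.54 ± 0.24, adjusted p = 0.318). Leaving out wild-type replicate 2 gave 0.31, and leaving out Tet2-deficient replicate 2 gave 0.78.

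Kdm3a, an H3K9 demethylase known to be induced by hypoxia, read 5.85, 5.89 and 6.05 in wild-type and 7.002, 6.02 and 6.62 in Tet2-deficient cultures. Tet2-deficient replicate 2 lay inside the wild-type range. The log2 change of 0.62 ± 0.22 (adjusted p = 0.210) was 0.88 without that array and 0.39 without Tet2-deficient replicate 1. Kdm3b, the close relative of Kdm3a, had 0.098 ± 0.14 (adjusted p = 0.783). The other H3K9 demethylases Kdm7a and Kdm4d had 0.32 and 0.16. Among the enzymes that act on both H3K9 and H3K36, the values were 0.23 for Kdm4a, 0.064 for Kdm4c and -0.060 for Kdm4b.

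Kdm2a, an H3K36 demethylase that binds unmethylated CG islands, was measured with little spread. It read 6.89, 6.94 and 6.95 in wild-type and 7.22, 7.22 and 7.32 in Tet2-deficient cultures (0.33 ± 0.11, adjusted p = 0.187), without overlap. With the span trend removed its change was 0.13 (adjusted p = 0.640). Its paralogue Kdm2b, which recruits a Polycomb complex to such islands, had -0.018 ± 0.13 (adjusted p = 0.966). The difference between these paralogues was not tested.

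The H3K4 erasers were close to 0 or slightly above it, with log2 changes of -0.16 to 0.29 over 6 genes and 0 at an unadjusted p under 0.05. Kdm1a, or LSD1, had 0.10 ± 0.12 (95% interval -0.17 to 0.37) and its relative Kdm1b -0.041. Kdm5a and Kdm5b, H3K4 trimethyl demethylases, had 0.29 ± 0.15 and 0.15 ± 0.15 (adjusted p = 0.403 and 0.684). The Kdm5a change was 0.18 without wild-type replicate 2, and that of Kdm5b was 0.00035 without Tet2-deficient replicate 1. The X-linked Kdm5c read 7.18, 6.98 and 7.02 against 7.23, 7.26 and 7.39 (0.24 ± 0.12, adjusted p = 0.374). Its Y-linked counterpart Kdm5d read 1.53, 1.53 and 1.71 against 1.22, 1.48 and 1.57, near the lowest values of the arrays. The Y-linked Uty read 1.13 to 1.65 over the 6 arrays. Eif2s3y, also Y-linked, read 1.89, 1.44 and 1.41 in wild-type and 1.06, 1.27 and 1.19 in Tet2-deficient cultures, without overlap (-0.41 ± 0.15, adjusted p = 0.235). All 3 Y-linked transcripts lay far below the median feature level of 3.55 on every array, so the Eif2s3y difference is one between values near the floor. Xist, the RNA of the inactive X chromosome, read 8.17, 7.90 and 8.21 in wild-type and 8.35, 7.05 and 8.63 in Tet2-deficient cultures. Xist was thus lowest in replicate 2 of either group, as Kdm6a was, and its part in the Kdm6a values was not tested.

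PRDM genes divided. Of 13, 4 lay higher and 1 lower with an unadjusted p under 0.05, against 7.63% and 8.37% of all features. Groups did not overlap for 6 (4 higher, 2 lower), against 22.0% of all features (9.74% higher, 12.2% lower). Above the median level lay 8 PRDM genes, 4 of them higher by that p, against 13.4% of all features at that level. Besides Prdm1, 3 further genes lay higher with an unadjusted p under 0.05. Prdm10 read 3.91, 4.07 and 3.98 against 4.43, 4.29 and 4.54 (0.43 ± 0.12, adjusted p = 0.126). Prdm2, also called RIZ, which has been described as an H3K9 methyltransferase, read 4.39, 4.22 and 4.06 against 4.51, 4.70 and 4.95 (0.49 ± 0.15, adjusted p = 0.155). The groups of both genes did not overlap, nor did those of Prdm4 (0.33 ± 0.14, adjusted p = 0.292).

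Prdm8 was the only one of the 60 genes to lie lower with an unadjusted p under 0.05. It read 3.20, 3.35 and 3.16 in wild-type and 2.79, 2.87 and 2.66 in Tet2-deficient cultures, all below the median feature level (-0.46 ± 0.12, adjusted p = 0.107). Prdm9, the meiotic H3K4 methyltransferase that sites recombination, was dim and variable (2.31 to 3.35 over all arrays), with -0.11 ± 0.26 (adjusted p = 0.886). The 7 remaining PRDM genes had log2 changes of -0.19 (Prdm6) to 0.27 (Prdm11 and Prdm15), with 0 at an unadjusted p under 0.05. The non-coding transcript Prdm16os (0.067 ± 0.14, adjusted p = 0.862) is named after the gene Prdm16 (-0.075 ± 0.12). Their annotated starts lie on opposite strands and point away from each other. Probe positions and strands were not given, so the separation of the 2 signals was not checked.

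Of the SET proteins without an accepted histone target, Kmt2e, a reader of H3K4 methylation, read 7.09, 6.97 and 7.03 in wild-type and 7.33, 7.27 and 7.41 in Tet2-deficient cultures. Its groups did not overlap (0.31 ± 0.11, adjusted p = 0.220), and with the span trend removed the change was 0.13. Setd3, the actin histidine methyltransferase, had -0.020 ± 0.12 and Setd6, which methylates the NF-kB subunit RelA, 0.027 ± 0.11. Setd4 had -0.27 ± 0.13 (adjusted p = 0.365). The JmjC proteins Jmjd6, a lysyl hydroxylase, and Kdm8 had -0.016 ± 0.12 and -0.0048 ± 0.13, both with 95% intervals within -0.29 to 0.28.

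Writers and erasers were next compared as classes. Of 22 writers 18 lay higher and 5 (22.7%) had an unadjusted p under 0.05, all higher. Of 17 erasers the counts were 13 and 4 (23.5%), all higher. Above the median level 18 of 21 writers and 12 of 15 erasers lay higher, and 23.8% and 26.7% had such a p, all higher. Of all features above that level 49.1% had a change above 0. Such a p was reached by 24.0% of them (13.4% higher, 10.6% lower). Within that level the median log2 change was 0.17 for writers and 0.23 for erasers. The median log2 change was 0.16 in both classes, 0.19 for PRDM genes and -0.0054 for features above the median level. Array by array, the median deviation of writers from each gene's own mean was 0.0063, -0.15 and -0.10 in wild-type and 0.039, 0.075 and 0.21 in Tet2-deficient cultures. For erasers it was 0.00072, -0.15 and -0.12 against 0.11, -0.027 and 0.16. The eraser groups therefore overlapped, through wild-type replicate 1 and Tet2-deficient replicate 2, while the writer groups did not. Tet2-deficient replicate 3 gave the highest value for 27 of the 60 genes and wild-type replicate 2 the lowest for 20. The eraser minus writer deviation was -0.015 to -0.0024 in wild-type and -0.10 to 0.067 in Tet2-deficient cultures, so the range of one group enclosed that of the other.

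**Figure D3:**
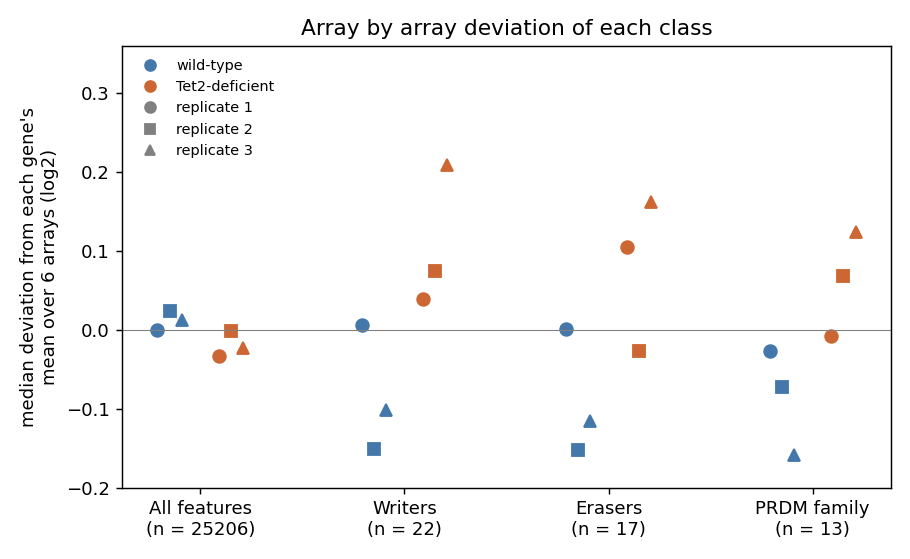
Median deviation of a class from each gene's mean over the 6 arrays (y axis, log2 units), by array, for all features, writers, erasers and PRDM genes. In the 3 classes wild-type replicates 2 and 3 are lowest and Tet2-deficient replicate 3 is highest, while medians over all features stay between -0.033 and 0.024.

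Genes of this family are long, and log2 changes leaned with gene length across the whole array. The median genomic span was 41.4 kb for writers, 62.4 kb for erasers and 60.4 kb for PRDM genes, against 15.6 kb for all features with a span. Among features above the median level, the median log2 change was -0.090 for genes spanning under 10 kb, 0.031 at 20 to 50 kb, 0.13 at 50 to 100 kb and 0.15 at 100 kb and over. The 18 genes of the family at 50 to 100 kb had a median of 0.27, with 16 above 0, where 66.7% of features of that span and level were above 0. At 20 to 50 kb, 18 genes above the median level had a median of 0.21. At 100 kb and over, 10 such genes had 0.12, slightly under the 0.15 of other long genes. Genes below 20 kb were few (9), and of these 5 lay above 0.

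Across the 60 genes the Pearson correlation of log2 span with log2 change was 0.29 and that of mean level with log2 change 0.42. Over all 23185 features with a span they were 0.19 and 0.16. Among features above the median level they were 0.30 and 0.26 for the 52 genes, against 0.31 and 0.096 over 11766 features. Genes share the 6 arrays and are not independent. After a loess trend with span and level was taken out of every array, the median was 0.064 for writers and 0.098 for erasers. Over all features the median of that fit was -0.011. A change above 0 was held by 36 of the 60 genes, and the share of all features above 0 was not counted for that fit. An unadjusted p under 0.05 was then reached by 9 genes, 8 higher and 1 lower, against 14.9% of all features. Prdm1 (0.52), Kdm6b (0.55) and Kdm3a (0.49) had the largest changes after that step, while Kdm1a, Kdm3b, Kdm4c, Kdm5b, Ehmt1, Dot1l, Nsd1, Nsd3 and Setd2 turned to the lower side and Jmjd6 and Kdm8 to the higher. Those of Kmt2a (0.19), Kdm6a (0.35), Kdm2a (0.13), Kdm5a (0.12), Kdm5c (0.098) and Kmt2e (0.13) were smaller than without it.

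**Figure D4:**
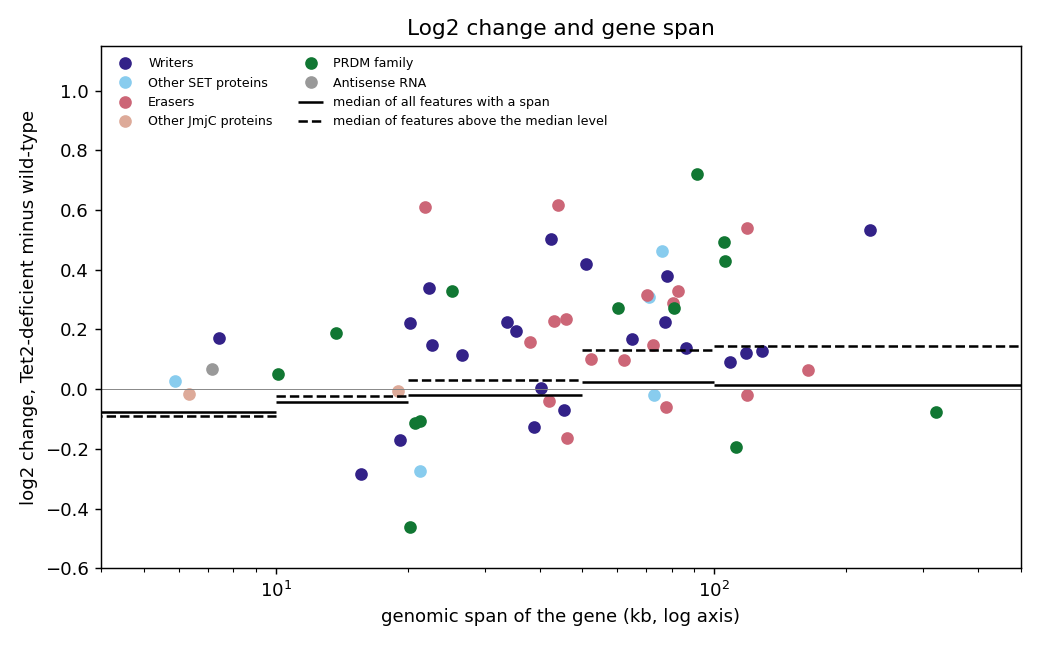
Log2 change of each of the 60 genes (y axis) against the genomic span of the gene (x axis, kb, log scale), coloured by class. Lines give the median of all features (solid) and of features above the median level (dashed) in 5 span classes, the dashed line going from -0.090 in the shortest to 0.15 in the longest class.

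Subunits that work with these enzymes were read from the same fit, and 0 of them passed the threshold in limma. Of the partners of H3K4 methyltransferases in COMPASS complexes 10 of 14 lay higher, with a median log2 change of 0.20. By unadjusted p under 0.05, 4 were higher and 1 lower. All 14 lay above the median level, where 49.1% of all features had a change above 0. At that level 13.4% of features were higher and 10.6% lower by the same p. Hcfc1, a chromatin cofactor of these complexes, read 6.85, 6.70 and 6.58 in wild-type and 7.15, 7.30 and 7.46 in Tet2-deficient cultures (0.59 ± 0.13, adjusted p = 0.0715). Dpy30, a core subunit, lay on the other side at 5.25, 5.69 and 5.46 against 5.06, 5.04 and 5.07 (-0.41 ± 0.14, adjusted p = 0.183). The other core subunits Wdr5, Rbbp5 and Ash2l had 0.19, 0.14 and 0.22.

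The PRC2 partners had a median of 0.047 over 10 genes, with the core subunits Eed at 0.011 and Suz12 at -0.062. Mtf2, which guides PRC2 to CG islands, had 0.60 ± 0.18 (adjusted p = 0.150), and Epop, an accessory subunit, -0.36 ± 0.14 (adjusted p = 0.242). Partners of H3K9 methylation had a median of 0.16 over 9 genes. Within them Tasor, the scaffold of the HUSH silencing complex, read 6.00, 5.75 and 5.80 against 6.46, 6.32 and 6.38 (0.54 ± 0.12, adjusted p = 0.0729), and Pphln1, or periphilin, of the same complex had -0.26 ± 0.11 (adjusted p = 0.296). LSD1 and CoREST partners had a median of 0.062 over 11 genes, from Hmg20b (-0.40 ± 0.12, adjusted p = 0.153) to the deacetylase Hdac1 (0.63 ± 0.21, adjusted p = 0.179). Another 18 methyltransferases, demethylases and related JmjC proteins outside the rule had a median of -0.020, with 0 past the threshold. By unadjusted p under 0.05, 0 were higher and 1 lower, against 7.63% and 8.37% of all features. The 2 with the smallest p were the ribosomal oxygenases Riox2 (-0.38 ± 0.13, adjusted p = 0.205) and Riox1 (0.25 ± 0.11, adjusted p = 0.313).

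**Figure D5:**
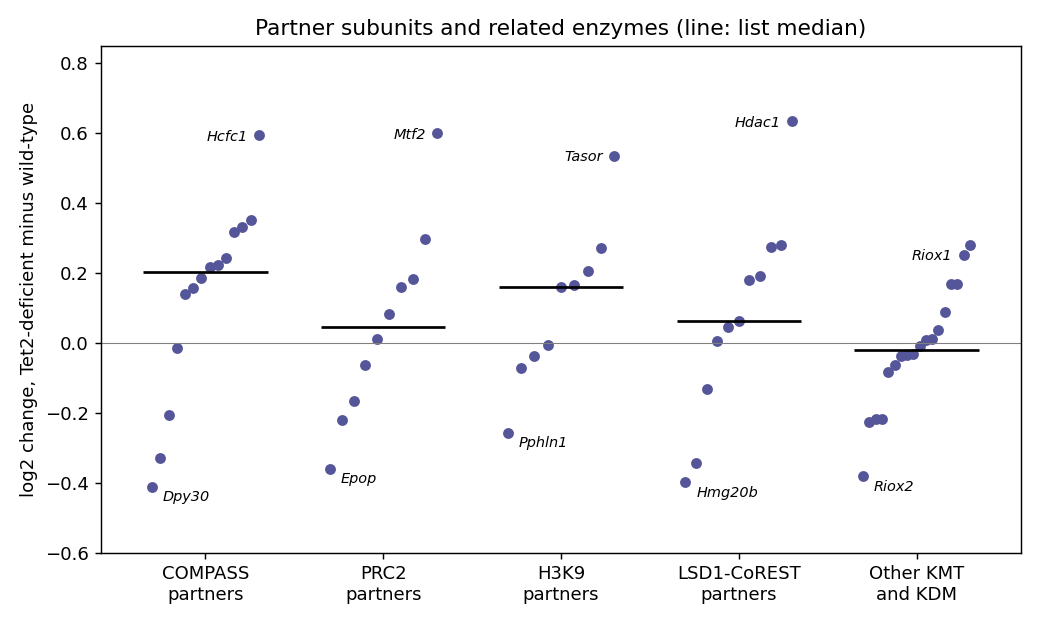
Log2 change (y axis) of partner subunits of 4 histone methylation complexes and of 18 related enzymes outside the rule; each point is 1 gene and each line the median of its list. The medians run from -0.020 for the related enzymes to 0.20 for COMPASS partners, and named points are the 2 genes of each list with the smallest p.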

How the data were processed

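The authors deposited log2 expression values per feature. RMA and affy 1.36.1 are named in the submitters' processing notes. The labels name an Affymetrix whole-transcript array. Its model, probe set definition and genome build: not given in the sources used here. Of 25206 features, 23185 carried 1 gene symbol in the platform annotation, 0 several and 2021 none. Symbols and genomic spans came from RefSeq (GRCm38.p6), matched by Entrez gene ID for all 23185. No depth applies to arrays, and their number limits the precision.

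The genotype difference was tested two-sided for every feature at once (limma 3.58.1, lmFit then eBayes; R 4.3.3), with p-values adjusted over all features and a threshold of 0.05. With 3 arrays against 3 a permutation test cannot go below 0.1, so none was used. The fit was tested on simulated data. The genes, classes and lists were chosen with earlier results of these data known, so no p-value is given over the family alone. A fixed list of members, the 12 with the smallest p and the extremes of each class were named by rule, and the others, seen with their values, to complete each class. Of 169 listed genes 160 were measured. Alternatives were centring on array medians, cyclic loess, features above the median level, a replicate block, a trended and robust prior, array weights, each array left out, and removal of a trend with span and level (loess span 0.3).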

Additional observations from a re-analysis of the deposited data

How the results depend on the processing

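Members past an adjusted p of 0.05 numbered 0 in the reported fit, 1 (Prdm1) with arrays centred on their medians or with array weights, 3 with features above the median level only or with a trended and robust prior, 0 in the other alternatives, and 12 at a threshold of 0.25. Over all features the count was 240, against 846 for features above the median level, 498 with array weights and 814 with the trended and robust prior, and 11 to 155 with 1 array left out. By unadjusted p under 0.05 there were 16 members, 9 to 16 with 1 array left out and 9 with the span trend removed. The median of writers, 0.16 in the reported fit, was set against the pooled standard deviation of its array medians within groups (0.085). It moved by more than that only with the span trend removed (to 0.064). It was 0.13 to 0.22 with 1 array left out, and that of erasers 0.16 to 0.23. The cause of these shifts was not tested. Of 451 values for 35 named members under 13 alternatives, 418 kept direction and side of the threshold, 8 passed it and 25 turned direction, the latter from reported changes of -0.13 to 0.15. With the span trend removed these were Kdm1a (-0.037), Kdm5b (-0.014), Ehmt1 (-0.039), Dot1l (-0.11), Jmjd6 (0.027) and Kdm8 (0.045). With arrays centred they were Jmjd6 (0.050), Kdm8 (0.061) and Setd3 (0.046), with cyclic loess Dot1l (-0.058) and Kdm8 (0.059), and with array weights Kdm8 (0.024). With 1 array left out, ranges that crossed 0 were -0.31 to 0.061 for Setdb2, -0.079 to 0.063 for Dot1l, -0.050 to 0.046 for Jmjd6, -0.38 to 0.14 for Prdm9, -0.069 to 0.074 for Kdm8, -0.076 to 0.052 for Setd3 and -0.048 to 0.16 for Prdm16os. The labels do not say whether same-numbered arrays were paired. Their deviations correlated at 0.084, 0.19 and 0.025. Tet2-deficient replicates 1 and 2 correlated best with the wild-type array of the same number, and Tet2-deficient replicate 3 with wild-type replicate 1 (0.064). Whether same-numbered arrays shared a batch was not tested. With the replicate block 230 features and 0 members passed, 18 members had an unadjusted p under 0.05, and Kdm6a had an adjusted p = 0.0812. The 3 arrays per group limit the precision.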
